A study of Mus musculus with 14 samples.

Results

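Genes of the integrated stress response and the cytosolic tRNA synthetases were examined in cultured newborn mouse islets treated with adjudin or with its vehicle. The 34 genes were picked by symbol and matched 35 of the 54532 rows of the gene count table, since Ddit3 has 2 identifiers and the second was at 0 in all libraries. All 34 were among the 18732 genes that passed a filter on low counts and were tested. They fall into 5 roles, with 7 transcription factors, 5 feedback regulators and brakes on growth, 2 secreted factors with 1 lipoprotein receptor, 8 enzymes of amino acid and one-carbon metabolism, and 11 tRNA synthetases.

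The islets came from C57BL/6JRj mice at postnatal day 0 (P0), which carried no transgene or disease allele according to the labels and methods. Each library was made from islets of several pups of either sex, hand-picked and pooled, and all islets were kept in RPMI medium with serum and 11 mM glucose. Adjudin, an analogue of lonidamine, was added at 10 µM for 1 day in 7 libraries, and DMSO, its solvent, in the other 7. The labels give each replicate number its own batch, so an Adjudin and a DMSO library with the same number form a pair.

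The integrated stress response is the programme by which cells answer a shortage of amino acids, misfolded protein in the endoplasmic reticulum, mitochondrial failure or haem deficiency. Kinases that respond to these stresses phosphorylate the initiation factor eIF2, general translation falls and the mRNA of the transcription factor ATF4 is translated more efficiently. ATF4 then induces genes for amino acid uptake and synthesis, the charging of tRNAs and feedback on the response itself. Beta cells make large amounts of proinsulin and depend on this control, and loss of the kinase PERK destroys them in mice and humans.

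ATF4 binds DNA as a dimer with C/EBP proteins at the C/EBP-ATF response element (CARE), whose core was searched as TGATGNAA on both strands in the 250 bases before each transcription start. Promoters came from RefSeq (GRCm38.p6), where 28 of the 34 genes had an entry, with 32 promoters in all. The core was found in 10 of these 32 promoters (31.2%), each of a different gene, and in 1134 of all 32851 promoters (3.45%). In the last 100 bases it was found in 3 of the 32 (9.38%), those of Asns, Gars and Tars, and in 1.54% of all promoters. The longer ER stress response element, bound by ATF6, was in none of the 32 and in 0.113% of all promoters. The following windows show where the core lies in genes of each role, with the matched letters in capitals, each read 5′ to 3′ on the strand of the gene.
Nupr1: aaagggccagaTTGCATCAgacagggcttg
Atf3: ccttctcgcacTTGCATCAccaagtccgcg
Chac1: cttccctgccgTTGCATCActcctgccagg
Vldlr: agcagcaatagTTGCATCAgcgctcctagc
Asns: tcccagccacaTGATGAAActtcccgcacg
Tars: gggccaggagtcccgTTGCATCAgctggtt
The windows lie at chr7:126625562-126625591 (minus strand) for Nupr1, chr1:191183425-191183454 (minus) for Atf3, chr2:119351038-119351067 (plus) for Chac1, chr19:27216809-27216838 (plus) for Vldlr, chr6:7693214-7693243 (minus) for Asns and chr15:11399659-11399688 (minus) for Tars. Of the 6 matches shown, 5 have the letters TTGCATCA, and the match of Asns differs from them. Fgf21, Pck2 and Gars were among the others that held the core.

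Ddit4 and Gdf15, the genes of the set with the smallest p-values below, had no match to the core in these windows, which says only that the letters are not there. After their values had been seen, the short string ACGTG, the core of the hypoxia response element and also part of the E-box CACGTG, was searched on both strands. It was present in 9 of the 32 promoters (28.1%) and in 16.6% of all promoters of the same length. Nupr1 and Gdf15 were among the 9, and both held it as the E-box CACGTG. Besides these and Ddit4, it was found in Aars, Asns, Eprs, Fgf21, Iars and Psph. Their log2 fold changes of Adjudin over DMSO ran from -0.07 (Iars) to 0.10 (Asns). None of them had an unadjusted p under 0.05 by edgeR, with or without the batch as a term. In the last 100 bases ACGTG was in 4 of the 32 (12.5%), Ddit4 not among them, and in 8.09% of all promoters. The 250 bases before the start of Ddit4, at chr10:59951771-59952020 on the minus strand, are shown because Ddit4 had the smallest p of the set, with the ACGTG match in capitals.
Ddit4: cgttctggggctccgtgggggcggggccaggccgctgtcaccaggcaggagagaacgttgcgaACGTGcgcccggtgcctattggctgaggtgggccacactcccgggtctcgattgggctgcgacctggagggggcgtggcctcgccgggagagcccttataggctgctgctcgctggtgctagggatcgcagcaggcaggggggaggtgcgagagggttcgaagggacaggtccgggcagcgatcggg
A match is a description of the sequence and was not tested as a site in these islets.

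Of the 14 libraries, 13 had 26475749 to 36900026 counts, and DMSO replicate 7 had 108865228. Levels are given as CPM (counts normalised to the library total and edgeR's TMM factors), as mean ± SD over 7 libraries, and fold changes as log2 of Adjudin over DMSO ± standard error (SE). The islets differed widely in cell content. The 10 endocrine markers summed to 136 to 20247 CPM with DMSO and to 1458 to 19443 CPM with adjudin, and the lowest value of each group was that of replicate 5. No marker was at 0 in all libraries. Mesenchymal markers were abundant throughout, with summed levels of 17057 to 33416 CPM with DMSO and 17350 to 31183 CPM with adjudin. In such bulk samples, fewer cells of a type and less RNA per cell cannot be told apart.

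Expressed per kilobase of the gene length in the table (RPKM), the most abundant of these mRNAs in DMSO-treated islets was Atf4 at 138 ± 11.4 RPKM (SD, n = 7). Atf5, a related factor that is likewise controlled through its translation, followed at 99.6 ± 20.2 RPKM, and Nars, the asparaginyl-tRNA synthetase, at 84.5 ± 9.82 RPKM. The levels of Atf5 and Nars were within their SDs of each other. Phgdh, the first enzyme of serine synthesis, had 55.9 ± 6.91 RPKM and was the highest of the metabolic enzymes. Eif4ebp1, which restrains cap-dependent translation by holding eIF4E, had 42.7 ± 6.27 RPKM and led the feedback genes. The synthetases spanned 11.7 ± 1.21 RPKM for Cars to 84.5 RPKM for Nars. At the low end were Gdf15 at 4.15 ± 1.07 RPKM and Fgf21, a stress hormone best known from liver, at 1.5 ± 0.456 RPKM.

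**Figure D1:**
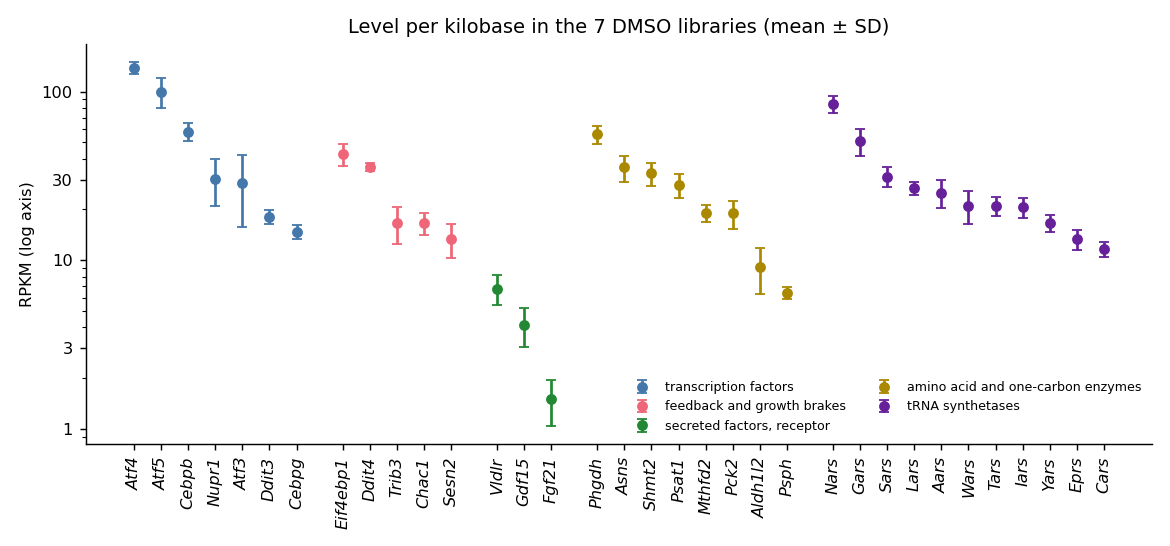
Level of each gene in the 7 DMSO libraries as RPKM on a log axis (points, mean; bars, SD), ordered within the 5 roles. Atf4 stood at 138 RPKM, and Fgf21 was the lowest at 1.5 RPKM.

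The main question was whether adjudin changed the RNA of this programme. In the quasi-likelihood test of edgeR, adjusted by Benjamini-Hochberg over all 18732 genes, 0 of the 34 passed an adjusted p of 0.05, against 1 gene of the whole table (0.00534%). At an unadjusted p under 0.05, 2 of the 34 were higher in Adjudin libraries, Ddit4 and Gdf15, and none was lower, against a background of 1.25% of all genes that were higher. With the batch as a term (the replicate block) there were 3, Nupr1 as the third, against 3.25%. DESeq2 without the block called 1 of 34, Ddit4, at an adjusted p under 0.05 (0.0079% of the genes it adjusted), and with the block it called 3, Ddit4, Gdf15 and Nupr1 (0.589%). By limma-voom 0 were called with or without the block, and the same 2 and 3 genes were at an unadjusted p under 0.05.

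**Figure D2:**
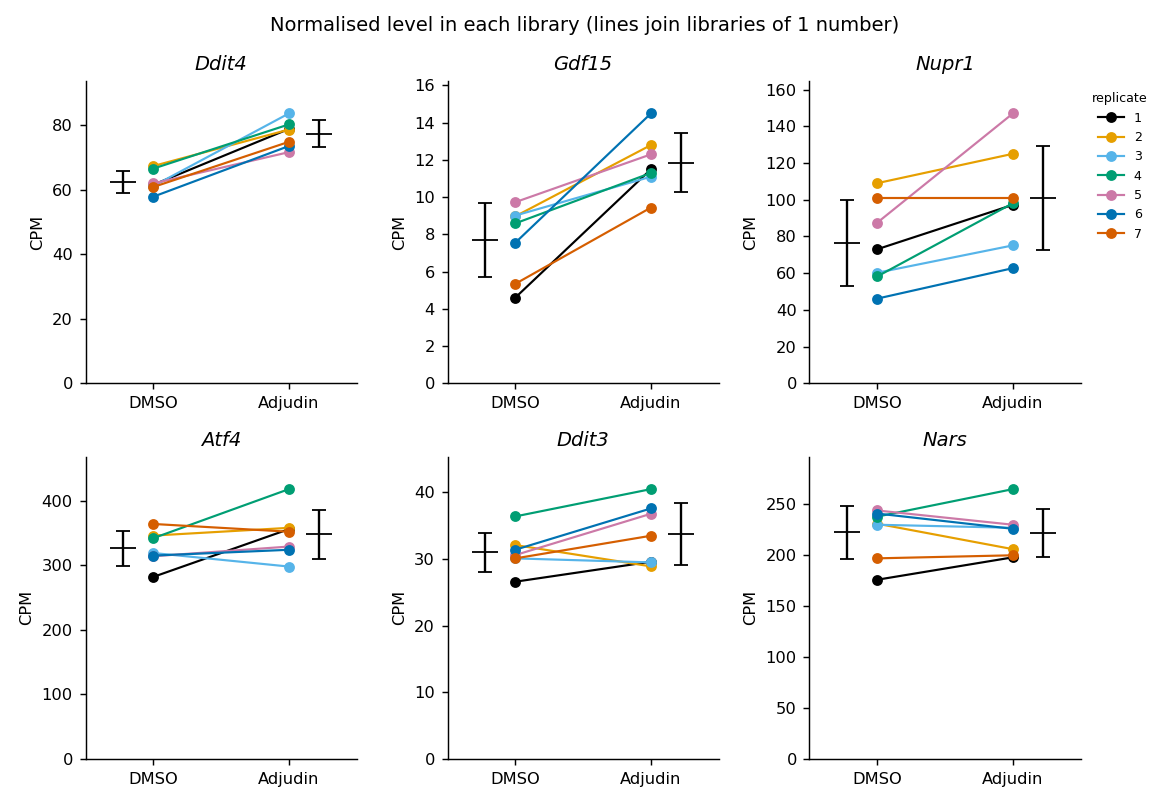
CPM of Ddit4, Gdf15, Nupr1, Atf4, Ddit3 and Nars in each library (points), with libraries of the same replicate number joined by a line; black crosses give mean ± SD of each group of 7. The Ddit4 groups do not overlap (highest DMSO 67.3 CPM, lowest Adjudin 71.6 CPM), and the Nars means are both 222 CPM.

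Ddit4, also known as REDD1, holds back mTORC1, the kinase complex that drives protein synthesis and growth (chromosome 10, 59949669 to 59951834, mm10). Its level in DMSO libraries ran from 57.8 CPM with a median of 61.5 to 67.3 CPM. In Adjudin libraries it ran from 71.6 CPM with a median of 78.6 to 83.6 CPM, so every Adjudin library lay above every DMSO library. Of all genes tested, 0.016% were separated in this way, and of the 34 genes Ddit4 was the only one. The means were 62.4 ± 3.36 and 77.3 ± 4.19 CPM (SD, n = 7 each).
The log2 fold change of Ddit4 was 0.31 ± 0.06 (SE), or 1.24-fold, with a 95% interval of 0.19 to 0.43. Its unadjusted p of 5.70e-05 by edgeR was the second smallest of the table and gave an adjusted p of 0.534. With the block the adjusted p was 0.321, while by DESeq2 it was 0.0492 without and 2.93e-04 with the block. Within the pairs the log2 difference ranged from 0.21 in pair 5 to 0.45 in pair 3. Of the 34 genes, 2 were higher in 7 of 7 pairs, Ddit4 and Gdf15, against 0.945% of all genes. Leaving out any library or pair kept the log2 fold change of Ddit4 between 0.29 and 0.33.

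Gdf15, a secreted factor of the TGF-β superfamily that acts on the hindbrain to suppress appetite, is a blood marker of cellular and mitochondrial stress (chromosome 8, 70629393 to 70632456). In DMSO libraries its level was 4.6 CPM at the lowest, 8.59 CPM at the median and 9.73 CPM at the highest. In Adjudin libraries it was 9.44 CPM at the lowest, 11.5 CPM at the median and 14.5 CPM at the highest. The groups met only where Adjudin replicate 7 at 9.44 CPM fell below DMSO replicate 5 at 9.73 CPM. Gdf15 had the largest fold change of the 34 genes, with means of 7.68 ± 1.98 and 11.9 ± 1.58 CPM (SD, n = 7 each).
The log2 fold change of Gdf15 was 0.63 ± 0.17, or 1.54-fold, with a 95% interval of 0.27 to 0.98 and an unadjusted p of 0.00182 (edgeR). Its adjusted p was 1 without and 0.530 with the block by edgeR, and 0.952 without and 0.00459 with the block by DESeq2. The pair differences were uneven. They were 1.32 in pair 1 and 0.82 in pair 7, where the DMSO libraries were low at 4.6 and 5.34 CPM. In pair 6 the difference was 0.95, with the DMSO library at 7.55 CPM and the Adjudin library the highest at 14.5 CPM. The other 4 pairs had 0.31 to 0.51. Without pair 1 the log2 fold change was 0.54.

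Nupr1 encodes a small chromatin-associated regulator that is induced by many cellular stresses and strongly in the inflamed exocrine pancreas (chromosome 7). Its level in DMSO libraries ran from 46.1 CPM with a median of 73.0 to 109 CPM, and in Adjudin libraries from 62.7 CPM with a median of 98.1 to 147 CPM, so the groups overlapped over most of their range. Adjudin was nevertheless the higher in 6 of 7 pairs, by 0.20 in pair 2 up to 0.75 in pair 4. In pair 7 both libraries were at 101 CPM. Without the block the log2 fold change of 0.40 ± 0.21 had an unadjusted p of 0.0756 by edgeR. With the block it was 0.41 ± 0.09, with a 95% interval of 0.20 to 0.61, an unadjusted p of 0.00136 and an adjusted p of 0.57. DESeq2 with the block gave an adjusted p of 0.0189.

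The summed level of 12 acinar markers, 9 of them tested, was 14 to 293 CPM with DMSO and 34.4 to 282 CPM with adjudin, and it was higher with adjudin in 6 of 7 pairs. None of these markers was at 0 in all libraries. The summed level of 7 ductal markers was higher in 6 of 7 pairs as well, at 235 to 1325 CPM with DMSO and 252 to 1345 CPM with adjudin. The mesenchymal sum was higher with adjudin in 2 of 7 pairs, the macrophage sum in 3 of 7 and the endothelial sum in 4 of 7. Single mesenchymal genes differed, with Pdgfrb higher in 0 of 7 pairs and Pdgfra in 6 of 7. The endocrine sum was higher in 5 of 7 pairs. Of its 10 genes 4, the islet genes Pdx1, Neurod1, Nkx2-2 and Iapp, were higher in 7 of 7, against 0.945% of all genes. By edgeR without the block 7 of the 10 had a positive log2 fold change. Ins1, Ins2 and Ppy were negative, at -0.03 ± 0.80, -0.13 ± 0.86 and -0.26 ± 0.59. With the block Ins1 and Ins2 were at 0.44 ± 0.66 and 0.38 ± 0.85. Ppy was at -0.29 ± 0.12 with the block and higher in 2 of 7 pairs. DESeq2 with the block, the fit that called Nupr1, Gdf15 and Ddit4, also called 4 endocrine markers, against 0.589% of the genes it adjusted. The adjusted p-values of these 4 by that fit were 8.77e-05 for Pdx1, 0.00754 for Chga, 0.00964 for Nkx2-2 and 0.0497 for Neurod1. The same fit called 2 acinar markers as well, the protease genes Ctrb1 (2.67e-04) and Cela2a (0.0333). By edgeR with the block Pdx1 was higher by 0.76 ± 0.13 on the log2 scale (adjusted p = 0.321). Endocrine and acinar markers were therefore called in the same fit as the 3 genes, and their part in the values of Nupr1, Gdf15 and Ddit4 was not tested. With the block but without pair 5, whose DMSO library had the least endocrine RNA, the log2 fold changes were 0.33 for Ddit4, 0.72 for Gdf15 and 0.36 for Nupr1, with adjusted p-values of 0.258, 0.331 and 0.402 by edgeR.

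Atf4 itself (chromosome 15) differed little. It ran from 282 to 364 CPM with a median of 319 in DMSO libraries and from 298 to 418 CPM with a median of 352 in Adjudin libraries. The groups overlapped, with Adjudin replicate 4 as the highest library and DMSO replicate 1 as the lowest. Its log2 fold change was 0.09 ± 0.08, with a 95% interval of -0.08 to 0.27, and 5 of 7 pairs were higher. The RNA level does not measure the translation through which ATF4 is mainly controlled. Ddit3, which encodes the pro-apoptotic factor CHOP, ran from 26.6 to 36.4 CPM with DMSO and from 28.9 to 40.5 CPM with adjudin. Its log2 fold change was 0.12 ± 0.09, with a 95% interval of -0.07 to 0.32, and again 5 of 7 pairs were higher. Ddit3 overlaps Mars on the other strand, and the strand setting of the counting is not given in the sources used here. How reads from the stretch shared by the 2 genes were counted is therefore not known.

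Of the remaining transcription factors, none had an unadjusted p under 0.05 by edgeR with or without the block. Cebpb, a dimer partner of ATF4, had a log2 fold change of 0.17 ± 0.09 and an unadjusted p of 0.0799. Its level was 72.3 to 99.6 CPM with DMSO and 81.8 to 112 CPM with adjudin. Atf5 had 0.12 ± 0.16 without and 0.11 ± 0.06 with the block, where its unadjusted p was 0.0769. Cebpg, the other dimer partner, had 0.03 ± 0.08. Atf3, an early-response factor that represses and activates stress genes, was the most variable of the 34, with a coefficient of variation of 45.2% among DMSO libraries. It ran from 22.4 to 96.4 CPM with DMSO and from 28.3 to 147 CPM with adjudin, and its log2 fold change of 0.01 ± 0.37 left a 95% interval of -0.77 to 0.79. Atf5 overlaps Nup62, and Cebpb overlaps Tmem189, each on the opposite strand.

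Among the feedback genes Ddit4 was the one at an unadjusted p under 0.05. Eif4ebp1 ran from 77.9 to 121 CPM with a median of 88.2 in DMSO and from 85.4 to 125 CPM with a median of 95 in Adjudin libraries, a log2 fold change of 0.06 ± 0.10 with a 95% interval of -0.15 to 0.28. Trib3, a pseudokinase that dampens ATF4 and AKT, had 0.10 ± 0.18, and its pair differences ran from -0.33 to 0.58. Sesn2, a leucine sensor that like Ddit4 restrains mTORC1, had 0.11 ± 0.16. Chac1, which degrades glutathione, had 0.05 ± 0.11. The 95% intervals of these 4 genes reached from -0.29 to 0.48 without the block and from -0.14 to 0.32 with it. Ddit4 with an SE of 0.06 was the most precisely measured of the 5.

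Vldlr, the very low density lipoprotein receptor that stressed cells use for lipid uptake, had 51.2 to 88.2 CPM with DMSO and 60.9 to 110 CPM with adjudin. Its median was 74.3 CPM with DMSO and 69.9 CPM with adjudin, whereas its log2 fold change was 0.13 ± 0.15, so that median and mean pointed in opposite directions. Adjudin replicate 6 was the highest library at 110 CPM, and without it the log2 fold change was 0.02. Fgf21 had 1.02 to 2.37 CPM with DMSO and 1.04 to 2.27 CPM with adjudin, with a log2 fold change of -0.02 ± 0.23. Both of its highest values came from replicate 5.

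Of the 8 metabolic enzymes all but Pck2 serve the synthesis of serine, glycine or asparagine or the folate-bound one-carbon units. By edgeR 0 of the 8 passed, adjusted or unadjusted, with or without the block, and DESeq2 and limma-voom called none. Phgdh ran from 115 to 169 CPM with a median of 140 in DMSO and from 123 to 167 CPM with a median of 147 in Adjudin libraries, a log2 fold change of 0.08 ± 0.09. Psat1, the next enzyme of serine synthesis, had the highest value at 0.11 ± 0.11, and Asns, the asparagine synthetase, had 0.10 ± 0.13. Psph, the last step to serine, had 0.06 ± 0.08, and Mthfd2 and Shmt2, the mitochondrial folate enzymes, had 0.08 ± 0.10 and 0.02 ± 0.11. Pck2, the mitochondrial enzyme that makes phosphoenolpyruvate, had 0.04 ± 0.13, and Aldh1l2, a mitochondrial folate dehydrogenase, was the 1 enzyme with a negative value, at -0.07 ± 0.20. With the block the 95% intervals of the 8 lay between -0.21 and 0.27. Psph, Shmt2 and Aldh1l2 overlap genes on the opposite strand (Cct6a, Ndufa4l2 and D10Wsu102e).

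The 11 tRNA synthetases, each of which charges its tRNA with 1 amino acid (Eprs does so for glutamate and proline), showed no difference past the tests. By edgeR 0 of the 11 passed, adjusted or unadjusted, with or without the block, and none was called by DESeq2 or limma-voom. Their median log2 fold change was -0.01, and 3 of 11 were positive, Wars, Sars and Gars. Nars had a DMSO range of 176 to 244 CPM with a median of 231 and an Adjudin range of 198 to 265 CPM with a median of 226. Its log2 fold change of -0.00 ± 0.09 had a 95% interval of -0.19 to 0.19. At the ends were Iars, the isoleucyl enzyme, with -0.07 ± 0.10 and Wars, the tryptophanyl enzyme that is also induced by interferon, with 0.18 ± 0.14. Aars, Cars, Eprs, Lars, Tars and Yars lay between -0.03 (Cars and Tars) and -0.00 (Lars), and Sars and Gars had 0.07 ± 0.10 and 0.03 ± 0.13. Wars was the least even within pairs, from -0.30 in pair 5 to 0.54 in pair 1, and when pair 5 was left out and the block kept, its unadjusted p fell under 0.05. Apart from Wars, the 95% intervals with the block lay between -0.20 (Iars) and 0.22 (Sars). Yars and Wars overlap opposite-strand genes, C77080 and Wdr25.

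**Figure D3:**
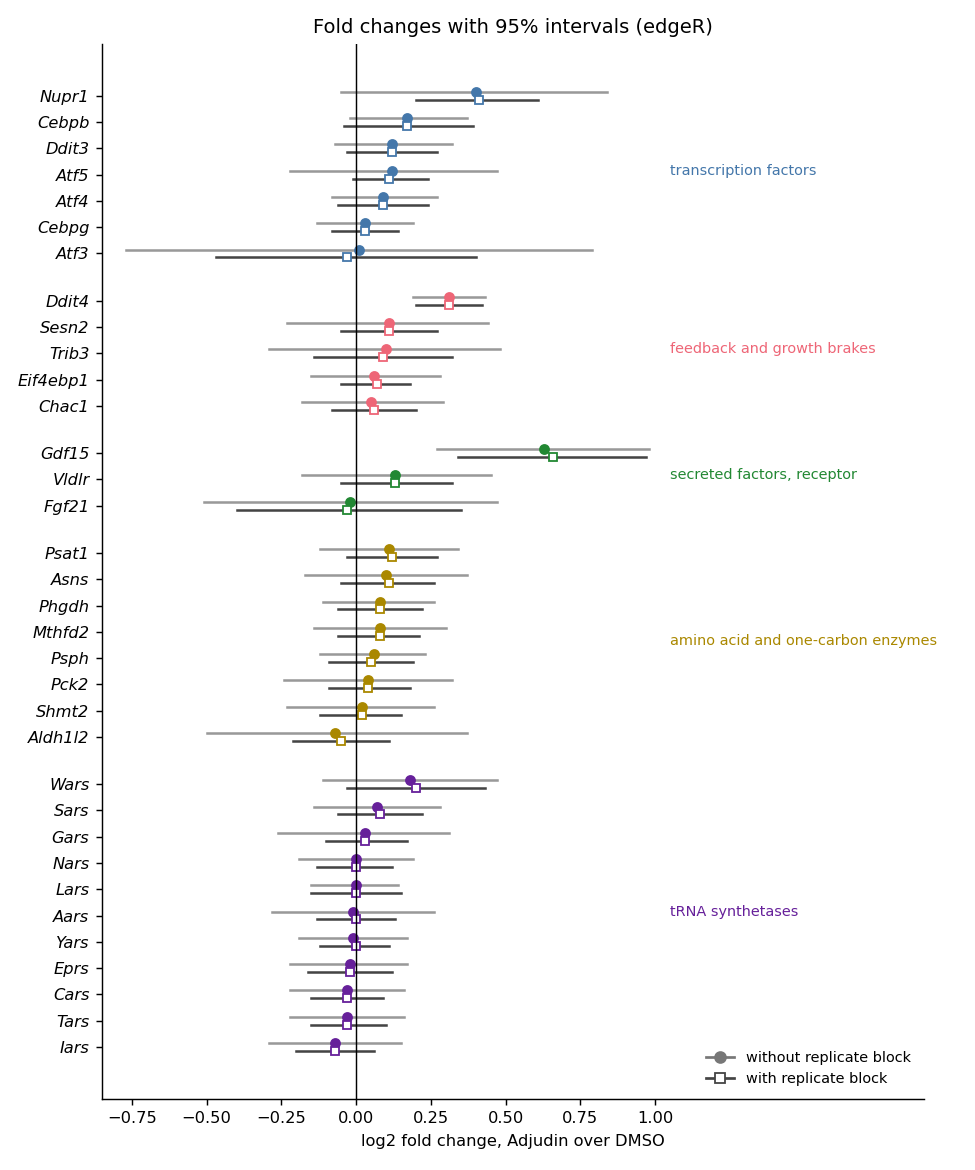
Log2 fold change of Adjudin over DMSO for the 34 genes, by role, from edgeR without (filled circles, grey bars) and with (open squares, dark bars) the replicate block; bars are 95% intervals. The intervals of Ddit4 and Gdf15 lie above 0 in both fits and that of Nupr1 with the block, and the synthetases centre on -0.01.

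Taken as a set, 24 of the 34 genes (70.6%) had a log2 fold change above 0, against 45.3% of all genes tested, and the median was 0.060 against -0.013 over all genes. By role the medians were 0.12 for the transcription factors (7 of 7 positive, although Atf3 was at -0.03 with the block), 0.10 for the feedback genes (5 of 5), 0.13 for the secreted factors and receptor (2 of 3), 0.07 for the metabolic enzymes (7 of 8) and -0.01 for the synthetases (3 of 11). This direction rested in part on single libraries. Without Adjudin replicate 4 the median was -0.000 with 16 genes positive, and without DMSO replicate 1 it was 0.018 with 19 positive. Without DMSO replicate 4 it was 0.112 with 30 positive. Scaling by library totals instead of TMM moved the median of all genes to 0.004 and that of the 34 to 0.075, with 28 positive.

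These libraries stood apart for most of the 34 genes, and no such comparison was made over all genes. In DMSO replicate 1, 1 of the 34 genes, Cebpb, lay above its DMSO median, and the median deviation was -0.37 on the log2 scale. In DMSO replicate 7, 6 lay above, with a median deviation of -0.23. In DMSO replicate 4, 29 lay above (0.13), and in Adjudin replicate 4 it was 30 (0.25). In 3 of the 7 replicates both libraries stood apart in the same direction. Both libraries of replicates 1 and 7 were low for the synthetases (median deviations of -0.39 and -0.21 in replicate 1 and of -0.26 and -0.20 in replicate 7) and both libraries of replicate 4 were high (0.10 and 0.15). In replicate 2 the Adjudin library was low (-0.19) and the DMSO library was at -0.05. Over the 14 libraries the median deviation of the synthetases ran from -0.39 to 0.15, and their median log2 fold change between treatments was -0.01. DMSO replicate 1 had the smallest library total and DMSO replicate 7 the largest. Cell content differed as well. The mesenchymal sum was 17057 (DMSO) and 20389 CPM (Adjudin) in replicate 1 and 21048 and 19177 CPM in replicate 7. In replicate 4 it was 33045 and 29950 CPM. It was also low in DMSO replicate 2 (18739 CPM) and Adjudin replicate 3 (20244 CPM), where the synthetases were at -0.05 and 0.01. The parts of depth and of cell content were not tested.

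**Figure D4:**
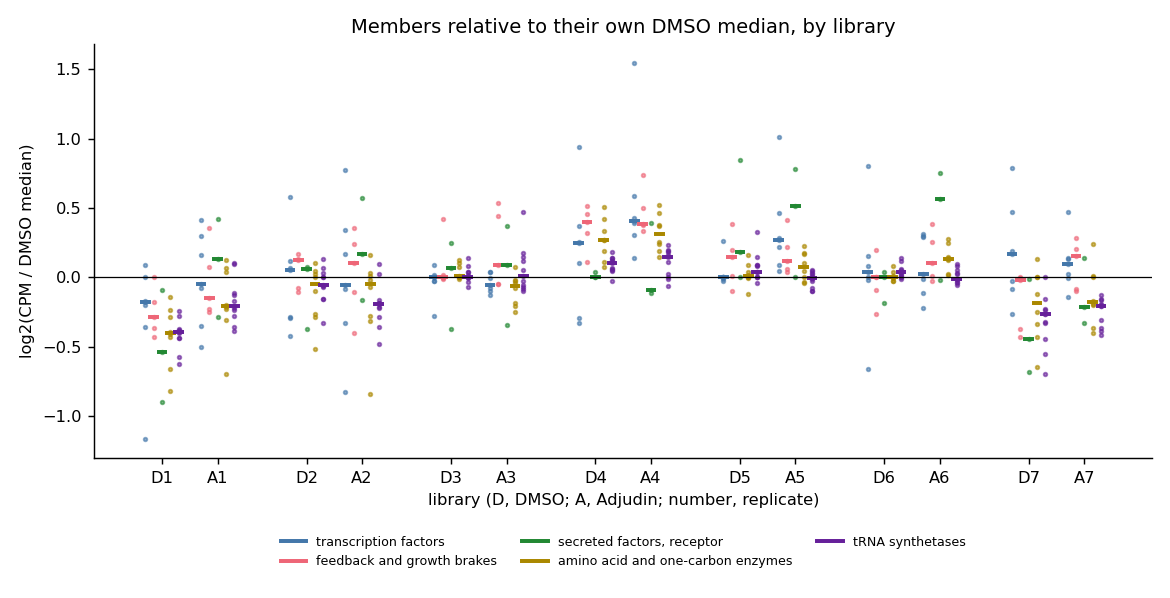
Log2 ratio of each gene's CPM to its own DMSO median in every library (dots), coloured by role, with short bars for the role medians; D and A are DMSO and Adjudin, with the replicate number. Replicates 1 and 7 lie below 0 for the synthetases in both groups, and replicate 4 above.

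Within pairs the picture changed from batch to batch. All 34 genes were higher with adjudin in pair 1, among them 11 of 11 synthetases, and the median log2 difference was 0.23. In pair 2, 13 of 34 were higher and 0 of 11 synthetases, which had a median of -0.15. Pair 3 also had 13 of 34, with 5 of 11 synthetases. Pairs 4 to 7 had 24, 19, 22 and 22 of 34, with 7, 1, 4 and 7 of 11 synthetases. The other 23 genes were in the majority higher in 6 of 7 pairs, the exception being pair 3 with 8 of 23. Over all genes tested the share higher with adjudin was 47.2% to 50.3% in each pair. Without pair 1 the median of the 34 was 0.037, with 21 positive.

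**Figure D5:**
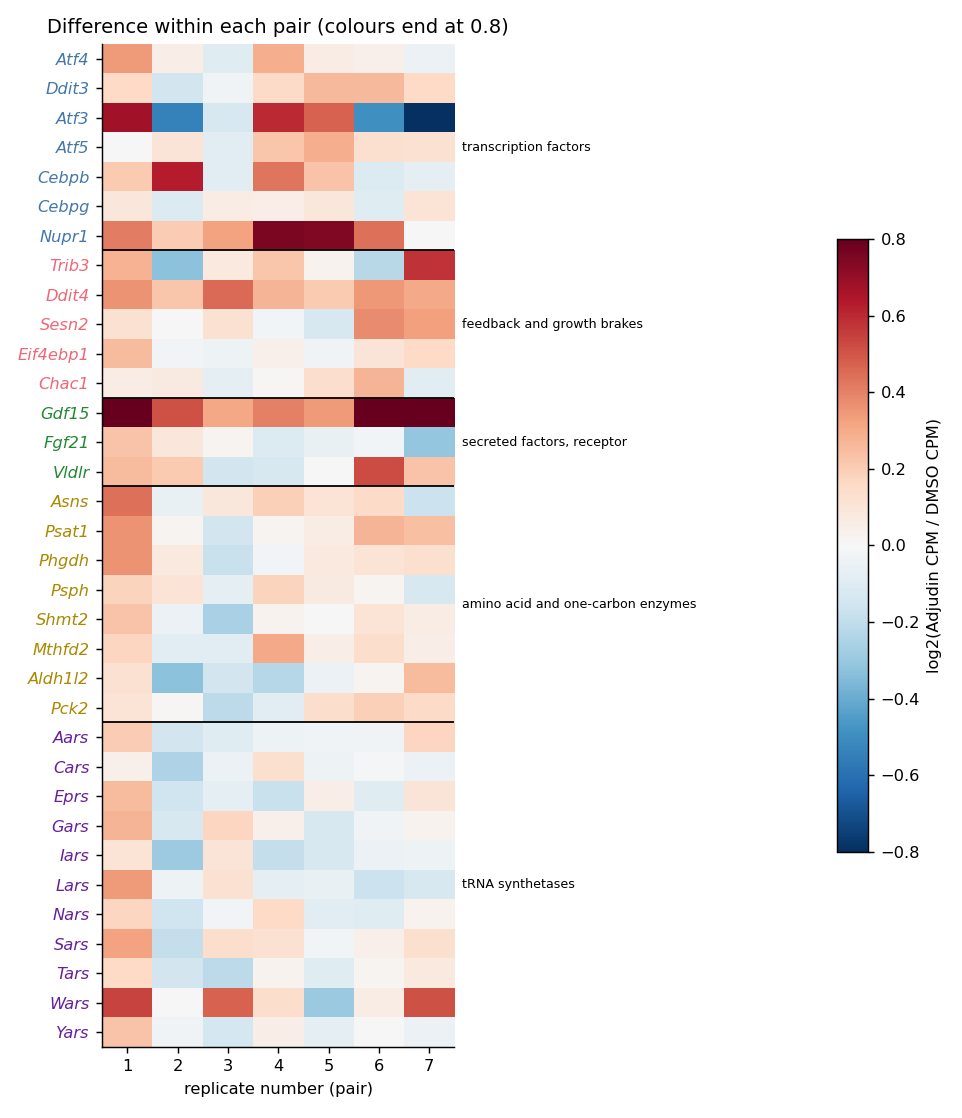
Log2 ratio of Adjudin to DMSO CPM for each gene (rows, by role) within each same-numbered pair (columns); red is higher with adjudin, blue lower, and values beyond 0.8 have the end colour. Ddit4 and Gdf15 are red in all 7 columns, and pair 1 is above 0 in all 34 rows.

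The genes upstream and beside this programme were taken from lists of the same pathways. Of 19 kinases, phosphatase subunits, translation factors and other regulators of the response, 7 were positive and the median log2 fold change was -0.01. By edgeR 0 of the 19 were at an unadjusted p under 0.05 with or without the block, and blocked DESeq2 called none. Smallest in p with the block were Eif2b5, a subunit of the eIF2 exchange factor, with 0.12 ± 0.06, Eif2ak2, the kinase PKR, with -0.20 ± 0.14, Eif2ak1, the haem-regulated kinase, with -0.10 ± 0.08, and Ppp1r15a, which directs dephosphorylation of eIF2, with 0.11 ± 0.09. Of 11 amino acid transporters 6 were positive, with a median of 0.01. Slc7a11, the cystine-glutamate exchanger, was the 1 transporter at an unadjusted p under 0.05 in both edgeR fits. Of all genes, 1.25% were higher at that level without the block and 3.25% with it. Slc7a11 had 22.5 ± 2.94 CPM with DMSO and 26.6 ± 4.42 CPM with adjudin. Its log2 fold change was 0.25 ± 0.11, with an unadjusted p of 0.0456 by edgeR without the block.

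The synthetases outside the 11 were read in the same way. Of 9 further cytosolic synthetase genes 4 were positive and the median was -0.02, and of 17 mitochondrial synthetase genes 5 were positive with a median of -0.08. In neither list was any gene at an unadjusted p under 0.05 in the edgeR fits with or without batch, and blocked DESeq2 called none. Farsa, a subunit of the phenylalanyl enzyme, had the smallest blocked p of the cytosolic list, with 0.08 ± 0.06, and Tars2 of the mitochondrial list, with -0.12 ± 0.07 and 1 of 7 pairs higher. The branch of the unfolded protein response that runs through ATF6 and XBP1, which expands the chaperones and the degradation machinery of the endoplasmic reticulum, had a median of -0.00 over 20 genes with 9 positive. By edgeR and DESeq2 with the block 0 of these 20 passed, and none was at an unadjusted p under 0.05 by edgeR. Xbp1 had 223 ± 20.3 CPM with DMSO and 233 ± 17.1 CPM with adjudin (SD, n = 7 each).

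The genes with a promoter entry were also divided by the presence of the CARE core. The median log2 fold change of the 10 genes with the core was 0.04, and they ran from -0.03 to 0.40 (Nupr1), with 7 positive. The 18 without it had a median of 0.08 and ran from -0.07 to 0.63 (Gdf15), with 15 positive. These are descriptions of 28 genes that share libraries, and no test was made of the difference.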

How the data were processed

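RNA was measured by poly-A-selected, paired-end RNA-seq in 14 libraries, 7 per treatment, with totals of 26475749 to 108865228 counts. The authors used HISAT2 2.0.5 for alignment to GRCm38/mm10 and deposited raw read counts per gene from featureCounts 1.5.0-p3, beside a gene length in bases. The sources used here do not give the annotation release, whether strand was used, or how multi-mapping reads were handled. Islets of several pups were pooled per sample, and whether the libraries of a pair share pups is not stated.

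Genes were kept by edgeR's filterByExpr (minimum count 10), scaled by TMM and tested with the robust quasi-likelihood test of edgeR 4.0.16 in R 4.3.3, treatment as the one term, with Benjamini-Hochberg adjustment over all genes tested. The threshold was an adjusted p of 0.05. Each SE came from the fold change and the F statistic, and intervals are 95%. Alternatives were the replicate block, DESeq2 1.42.0 and limma-voom (limma 3.58.1) with and without it, scaling by library totals, no filter, and leaving out each library or pair. RPKM is normalised CPM per kilobase of the deposited gene length. The test procedures were tested on simulated data.

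Same-numbered libraries share a batch by the labels. Their deviations from the group means correlated at -0.14 to 0.45 (mean 0.25), against a mean of -0.04 for other numbers. The genes, lists, motifs and tests were chosen with earlier results of these data known. Genes described in full were those at an unadjusted p under 0.05 by edgeR or called by DESeq2, with or without the block, Atf4, Ddit3 and the highest per kilobase in each role. Of the other lists, up to 4 genes with the smallest blocked p are given. Not every promoter window with the core is reported here.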

Additional observations from a re-analysis of the deposited data

Results flagged for a closer look

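Within each group of 7 libraries, the gap between the highest or lowest library and its neighbour was compared with the range of the group. Of 68 groups (34 genes in 2 treatments) 8 had a library that stood apart by Dixon's test at the 95% level, and chance flags about 1 in 20 groups. Adjudin replicate 4 was the high library for 3 genes, Atf3 at 147 CPM (next 69.5), Cebpg at 101 CPM (next 86.7) and Eif4ebp1 at 125 CPM (next 98.0). Fgf21 stood apart in both libraries of replicate 5, at 2.37 CPM in DMSO (next 1.39) and 2.27 CPM in Adjudin (next 1.48). Vldlr was high in Adjudin replicate 6 at 110 CPM (next 79.2), and Wars in Adjudin replicate 3 at 106 CPM (next 82.6). Asns was low in DMSO replicate 1 at 62.5 CPM (next 96.8). Ddit4, Gdf15 and Nupr1 had no such library in either group.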

How the results depend on the processing

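The replicate block, which uses the pairing by batch, lowered the number of all genes past an adjusted p of 0.05 from 1 to 0 by edgeR, and limma-voom gave 0 with and without the block, whereas DESeq2 gave 3 without and 111 with it. Of the 34 genes edgeR and limma-voom called 0 throughout, DESeq2 called 1 without the block (Ddit4, 0.31) and 3 with it (Ddit4, 0.31, Gdf15, 0.66, and Nupr1, 0.41). The cause was not tested. After seeing the data, 2 settings were added, the block without pair 5 and the block with scaling by library totals. Each gave 0 of all genes, and 4 of the 34 at an unadjusted p under 0.05, against 3 with the block alone, with Wars or Atf5 beside the 3 others. Leaving out single libraries or pairs gave 0 to 1 of all genes, 0 of the 34, 2 to 4 at an unadjusted p under 0.05 (Cebpb, Nupr1 or both joining) and medians of the 34 from -0.000 to 0.112. Ddit4 and Gdf15 were at an unadjusted p under 0.05 in every setting run. Scaling by library totals turned the split of all genes at that level from 235 higher and 189 lower to 280 and 134, and the block raised the count from 424 to 1055.

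Nars, at -0.00, changed sign under DESeq2 (0.00, with the block 0.00), library totals (0.01, with the block 0.02), no filter (0.01) and the block without pair 5 (0.02), and ranged from -0.05 to 0.02 on leaving out libraries. Eif4ebp1 ranged from -0.00 to 0.14, Ddit3 from 0.07 to 0.16, Atf4 from 0.04 to 0.14, Phgdh from 0.03 to 0.13, Vldlr from 0.02 to 0.21, Nupr1 from 0.29 to 0.50, Gdf15 from 0.53 to 0.70 and Ddit4 from 0.29 to 0.33. The CARE core was in 506 of all promoters in 100 bases instead of 1134. At 1 pool of islets per library, a gene whose interval held 0 could still differ by an amount within that interval. Gdf15 and Fgf21 had the fewest counts.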

Other observations

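Ddit4 and Gdf15 are known from other tissues as targets of p53 as well as of ATF4, and Ddit4 also of the hypoxia factor HIF-1. Of 14 other p53 target genes 13 were higher on average, against 45.3% of all genes tested, and the median log2 fold change was 0.10. At an unadjusted p under 0.05 by edgeR 2 of the 14 were higher, Cdkn1a and Eda2r, against 1.25% of all genes. Sesn1, the gene that went the other way, had a log2 fold change of -0.12. Cdkn1a, the cell cycle inhibitor p21, had 80.0 ± 12.8 CPM with DMSO and 108 ± 13.0 CPM with adjudin (SD, n = 7 each), a log2 fold change of 0.43 ± 0.11 and was higher in 7 of 7 pairs. Its adjusted p was 1 without and 0.321 with the block by edgeR, and 1.12e-04 by DESeq2 with the block. Eda2r, a death-domain receptor, had 0.26 ± 0.10 with an unadjusted p of 0.0231 by edgeR, and Bax and Ei24 had 0.16 ± 0.09 and 0.10 ± 0.05, with unadjusted p-values of 0.0996 and 0.0628.

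Of 14 hypoxia targets 11 had a log2 fold change above 0, against 45.3% of all genes tested, with a median of 0.16. At an unadjusted p under 0.05 by edgeR 1 was higher, Ankrd37, against 1.25% of all genes. With the block 2 were higher, Vegfa and Ankrd37, against 3.25% of all genes, and 1 was lower, P4ha1. Vegfa, the vascular growth factor, had 128 ± 18.3 CPM with DMSO and 151 ± 27.0 CPM with adjudin and was higher in 7 of 7 pairs, with an adjusted p of 0.584 by edgeR and 0.0456 by DESeq2, both with the block. Ankrd37 had 0.47 ± 0.21 and Slc2a1, the glucose transporter GLUT1, 0.25 ± 0.14. P4ha1, a collagen prolyl hydroxylase, went the other way with -0.18 ± 0.07 with the block, higher in 1 of 7 pairs. These lists were chosen with earlier results of these data known, and no test was made of either list.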
